A study of Mus musculus with 12 samples.

Results

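The unfolded protein response and the integrated stress response were followed through 36 genes, chosen by name for their known roles. No rule on measured values was used, but earlier results of these data were known when the genes were chosen. They are 36 of the 48709 gene identifiers in the count files, and all 36 were found and tested. They comprise 10 regulators of the integrated stress response (Atf4, Ddit3, Trib3, Chac1, Sesn2, Atf3, Atf5, Ppp1r15a, Cebpb and Nupr1), 8 amino acid and one-carbon genes that are targets of the factor Atf4 (Asns, Psat1, Phgdh, Shmt2, Mthfd2, Slc7a11, Slc7a5 and Slc3a2), the ER stress factors Atf6 and Xbp1, 13 endoplasmic reticulum (ER) chaperones and folding enzymes, and 3 genes of ER-associated degradation (Herpud1, Edem1 and Sel1l).

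RNA was sequenced from primary cultures of embryonic day 18 hypothalamus of C57BL/6 mice, grown as neurospheres, which are floating clusters of neural cells. Every group carried a reporter virus at a multiplicity of infection of 10 and received basic fibroblast growth factor at 10 ng/ml. By the labels, mCherry was delivered by adeno-associated virus to mark hypocretin (Hcrt) cells, and EGFP by lentivirus to mark melanin-concentrating hormone (MCH, gene Pmch) cells. Cells were sorted after a week into reporter-positive and reporter-negative cells, 3 libraries each, for mCherry and for EGFP. The negative groups are therefore cells of virus-treated cultures sorted as reporter-negative, and no group was grown without virus. The promoters that drove the reporters are not given in the sources used here. Amplified cDNA was made from 0.8 ng of total RNA in the mCherry sort and from 2 ng in the EGFP sort, so virus, RNA input and sort cannot be told apart between the reporters.

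In the integrated stress response, kinases that sense amino acid shortage, misfolded ER proteins, haem lack or double-stranded RNA phosphorylate the initiation factor eIF2alpha. General translation then slows while translation of the Atf4 message increases, and the Atf4 protein switches on genes for amino acid uptake and synthesis. In the unfolded protein response, misfolded proteins in the ER also activate Atf6 and the splicing of the Xbp1 message, which together raise ER chaperones and degradation genes. Gene counts show neither translation of Atf4 nor splicing of Xbp1, so both pathways were read here through message levels only.

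Promoter sequences that hold motifs of each arm are shown first. Whether the motifs bear on the calls below was not tested. Known motifs were searched on both strands in the 250 bases before each RefSeq start site (build GRCm38.p6). They were the amino acid response element bound by Atf4 and its partners (CARE, TGATGNAA), the ER stress response element (ERSE, CCAAT and CCACG with 9 bases of any kind between them) and its second form (ERSE-II, ATTGG and CCACG with 1 base between them). No match of one motif overlapped a match of another in these genes. Windows were found for 32 of the 36 genes (34 windows, none for Atf6, Slc7a5, Hyou1 and Manf). CARE lay in 3.45% of all 32851 windows, and in 3.91% of all 27025 genes with a window. It was found in 3 of the 10 regulators (Chac1, Atf3 and Nupr1), in 2 of the 7 amino acid targets with a window (Asns and Slc7a11) and in Herpud1. ERSE lay in 0.113% of all windows (0.13% of all genes) and in 7 of the 11 ER chaperone genes with a window (Hspa5, Hsp90b1, Dnajc3, Creld2, Pdia6, Calr and Canx). ERSE-II lay in 0.0304% of all windows (0.037% of all genes) and, of the 32 members with a window, in Herpud1 alone, which also held CARE. A match describes letters and not a bound site.

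The first 4 sequences below belong to genes with CARE that were higher in EGFP-positive cells, Nupr1 has CARE and was not called, and Hspa5, Dnajc3 and Canx have ERSE and were not called. Herpud1 holds both kinds of motif and was not called either. These calls used all EGFP libraries, and without EGFP-positive library 1 Hspa5, Dnajc3 and Canx were called higher. Sesn2, Ppp1r15a, Psat1, Phgdh, Mthfd2, Slc3a2 and Pdia4 were called higher too, and their windows held none of these motifs. Capitals mark the motif, and each sequence is read 5′ to 3′ on the gene's strand. They lie at chr2:119351024-119351081 (plus strand), chr1:191183411-191183468 (minus strand), chr6:7693214-7693243 (minus strand), chr3:50443628-50443704 (minus strand), chr7:126625562-126625591 (minus strand), chr2:34772020-34772049 (plus strand), chr14:118937802-118937870 (plus strand), chr11:50325775-50325843 (minus strand) and chr8:94386292-94386412 (plus strand). The Asns, Nupr1 and Hspa5 stretches lie upstream of the RefSeq start but meet an exon in GENCODE, and only 30 bases of each are given.
Chac1: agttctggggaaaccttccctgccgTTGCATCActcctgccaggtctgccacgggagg
Atf3: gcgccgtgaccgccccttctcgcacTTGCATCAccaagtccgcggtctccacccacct
Asns: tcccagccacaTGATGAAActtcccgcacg
Slc7a11: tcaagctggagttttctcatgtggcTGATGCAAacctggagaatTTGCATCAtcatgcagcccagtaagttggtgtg
Nupr1: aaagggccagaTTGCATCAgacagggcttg
Hspa5: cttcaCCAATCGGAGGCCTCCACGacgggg
Dnajc3: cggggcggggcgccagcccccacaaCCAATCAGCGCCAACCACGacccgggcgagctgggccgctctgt
Canx: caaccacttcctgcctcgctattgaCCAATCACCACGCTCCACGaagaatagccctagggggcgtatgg
Herpud1: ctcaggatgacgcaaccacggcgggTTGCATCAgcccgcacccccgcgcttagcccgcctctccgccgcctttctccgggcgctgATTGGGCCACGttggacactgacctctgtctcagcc
Slc7a11 held the element at 2 places, once in each orientation, and Herpud1 carried CARE upstream of ERSE-II.

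Libraries held 16291110 to 32889829 reads in genes. Levels below are CPM, counts scaled to library size and then by TMM factors, on 1 scale for all 12 libraries. Fold changes are positive over negative cells of the same sort, on the log2 scale, from edgeR's quasi-likelihood test on the 6 libraries of that sort, and a gene was called at an adjusted p under 0.05 over all genes tested. The labels do not say whether replicates were separate cultures, so the p-values speak only of the variation among these libraries, part of which may be technical. Hcrt, the defining transcript of the cells that mCherry is meant to mark, stood at or below 0.392 CPM in all 12 libraries with overlapping mCherry groups, so the mCherry-positive cells are named here by their reporter only. Pmch reached 17.2 to 19.1 CPM in EGFP-positive against 3.93 to 5.02 CPM in EGFP-negative libraries. Replicates varied more in the mCherry sort, with a common coefficient of variation of 0.382 against 0.189 in the EGFP sort. The mCherry-positive library 1 stood apart in microglia markers (622 CPM summed over 7 genes, 25.96 to 149 CPM in the other mCherry libraries), and the mCherry-positive libraries 2 and 3 in pituitary hormone genes (2257 and 5084 CPM summed over 8 genes, at most 218 CPM in the other mCherry libraries). In these bulk samples, fewer cells of a type and less RNA per cell cannot be told apart.

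In EGFP-positive cells, the amino acid arm of the integrated stress response was higher, while most ER chaperones were not called. Of the 36 genes, 12 rose and 1 fell, and 17 had an unadjusted p under 0.05. Over all 16326 genes tested in the EGFP sort, 8.99% were called higher and 7.07% lower, and 4974 had an unadjusted p under 0.05. The 12 that rose were 7 of the 8 amino acid targets, 4 of the 10 regulators and 1 of the 13 chaperones. The median log2 fold change was 0.56 over the amino acid targets, 0.47 over the regulators, 0.02 over the chaperones and -0.01 over all genes tested.

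**Figure D1:**
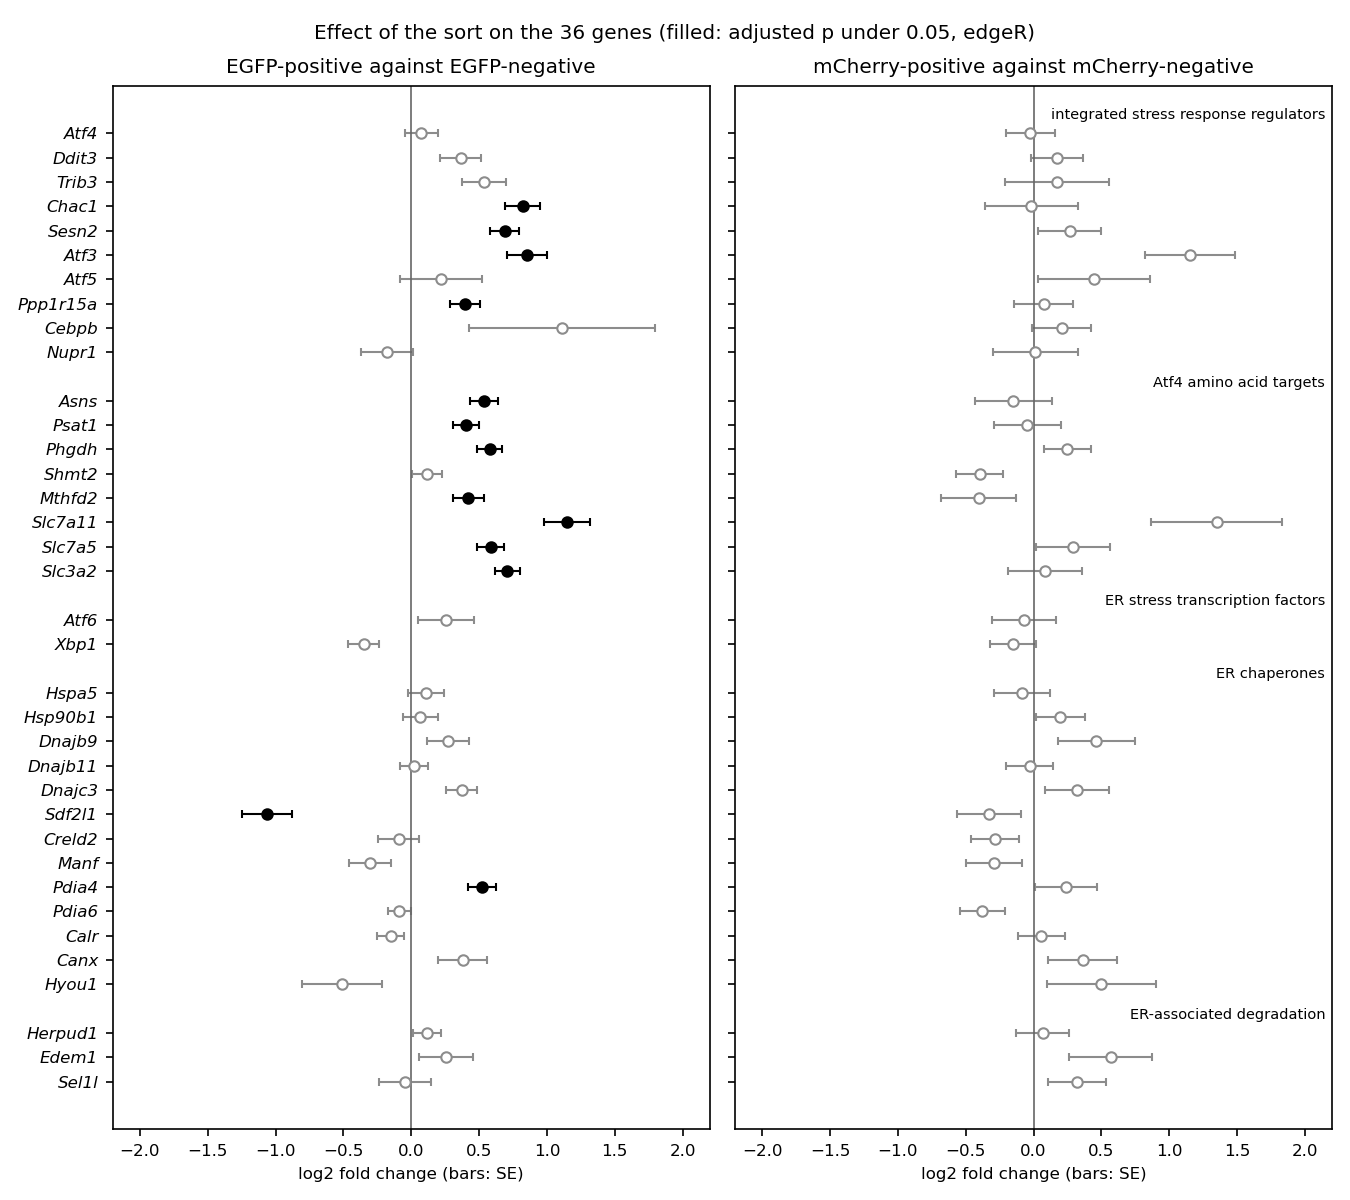
Log2 fold change of each of the 36 genes in the EGFP sort (left) and the mCherry sort (right), positive over negative cells, with bars of 1 standard error and filled points for genes called by edgeR at an adjusted p under 0.05. In the EGFP sort 7 of 8 amino acid targets are filled to the right of 0 against 1 of 13 ER chaperones, and no point is filled in the mCherry sort.

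The transporter genes led the amino acid arm. Slc3a2 encodes the heavy chain shared by several amino acid transporters (ENSMUSG00000010095, chr19:8706882-8723369). Its levels were 959, 873 and 815 CPM in the 3 EGFP-positive libraries and 543, 541 and 514 CPM in the 3 EGFP-negative libraries. Every positive library lay above every negative library, and the log2 fold change was 0.71 ± 0.09 (SE), adjusted p = 0.00136. Slc7a11 encodes the light chain of the cystine and glutamate exchanger, which pairs with that heavy chain (ENSMUSG00000027737, chr3:49892526-50443614). The EGFP-positive libraries gave 153, 183 and 240.0 CPM, and the EGFP-negative libraries gave 82.1, 79.1 and 96.5 CPM. The groups did not overlap, and the gene had the largest change of the 12 that rose, 2.21-fold (log2 1.14 ± 0.17 (SE), adjusted p = 0.00269). Slc7a5, the light chain of the large neutral amino acid transporter, uses the same heavy chain. In EGFP-positive cells the 3 libraries held 419, 440.4 and 477 CPM, and in EGFP-negative cells 273, 318 and 288 CPM. It rose without overlap of the groups (log2 0.58 ± 0.10 (SE), adjusted p = 0.00554).

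The enzymes of serine and asparagine synthesis also rose. Phgdh catalyses the first step of serine synthesis from glycolysis, and in brain it is made largely by glia and progenitors. Phgdh stood at 626, 612 and 558 CPM in EGFP-positive libraries 1 to 3 and at 416, 391 and 379 CPM in EGFP-negative libraries 1 to 3. The groups stood well apart, with a log2 fold change of 0.58 ± 0.09 (SE), adjusted p = 0.00358. Psat1 catalyses the step after Phgdh. Its levels were 659.9, 775 and 745 CPM in the 3 EGFP-positive libraries and 527, 552 and 547 CPM in the 3 EGFP-negative libraries. The lowest positive library was above the highest negative library, and the log2 fold change was 0.40 ± 0.09 (SE), adjusted p = 0.0183. Asns makes asparagine and is the textbook target of Atf4. The EGFP-positive libraries gave 248, 222 and 211 CPM, and the EGFP-negative libraries gave 159, 151 and 154 CPM. It rose 1.45-fold (log2 0.53 ± 0.10 (SE), adjusted p = 0.00851).

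The one-carbon enzymes of mitochondria gave unequal values. Mthfd2, which oxidises folate-bound one-carbon units, ranged from 81.6 to 90.0 CPM in EGFP-positive and from 60.2 to 64.1 CPM in EGFP-negative libraries (log2 0.42 ± 0.11 (SE), adjusted p = 0.0334). Shmt2, which passes a carbon unit from serine to folate, ranged from 228 to 263 CPM and from 203 to 240 CPM, so its groups overlapped (log2 0.12 ± 0.11 (SE), adjusted p = 0.518). It was the 1 amino acid target that missed the threshold. Summed over the 8 targets, EGFP-positive libraries held 3412, 3436 and 3366 CPM and EGFP-negative libraries 2305, 2323 and 2246 CPM.

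Astrocyte markers moved with the amino acid targets in the EGFP sort. Summed over 7 astrocyte markers, EGFP-positive libraries held 14488, 17095 and 19156 CPM and EGFP-negative libraries 7475, 7654 and 7784 CPM, and 6 of the 7 (Gfap, Aqp4, Aldh1l1, Slc1a3, Slc1a2 and Gja1) were called higher and 1 (S100b) lower. Of 8 neuron markers 6 were called lower, of 8 oligodendrocyte lineage markers 7 were called lower, and of 7 microglia markers 6 were called lower. The sums were 879 to 1140 CPM against 1372 to 1380 CPM for neurons, 1438 to 1490 CPM against 4255 to 4456 CPM for the oligodendrocyte lineage and 4.11 to 4.84 CPM against 27.8 to 44.1 CPM for microglia, positive against negative. Of 5 ependymal markers 4 were called higher, of 7 pituitary hormone genes tested 3 lower, of 7 mural and fibroblast markers 2 higher and 5 lower, and of 8 dividing cell markers 1 lower. Of 5 endothelial markers, Kdr was called higher (14.5 to 29.5 CPM against 1.504 to 3.62 CPM), Pecam1 was not called, and Cldn5, Cdh5 and Tek were too low to test. Of 7 genes that respond to tissue dissociation, Fos and Dusp1 were called higher. Library measures moved with the EGFP groups as well. Mitochondrial genes held 0.766% to 0.872% of gene reads in EGFP-positive and 1.16% to 1.36% in EGFP-negative libraries. Reads that the counting assigned to no feature came to 5.51 to 6.93 and to 8.58 to 9.95 per 100 gene reads, respectively. In the mCherry sort the mitochondrial share was instead higher in positive libraries (1.06% to 1.54% against 0.805% to 0.953%), and the reads assigned to no feature overlapped between the groups. The part of the marker and library shifts in the amino acid result was not tested.

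**Figure D2:**
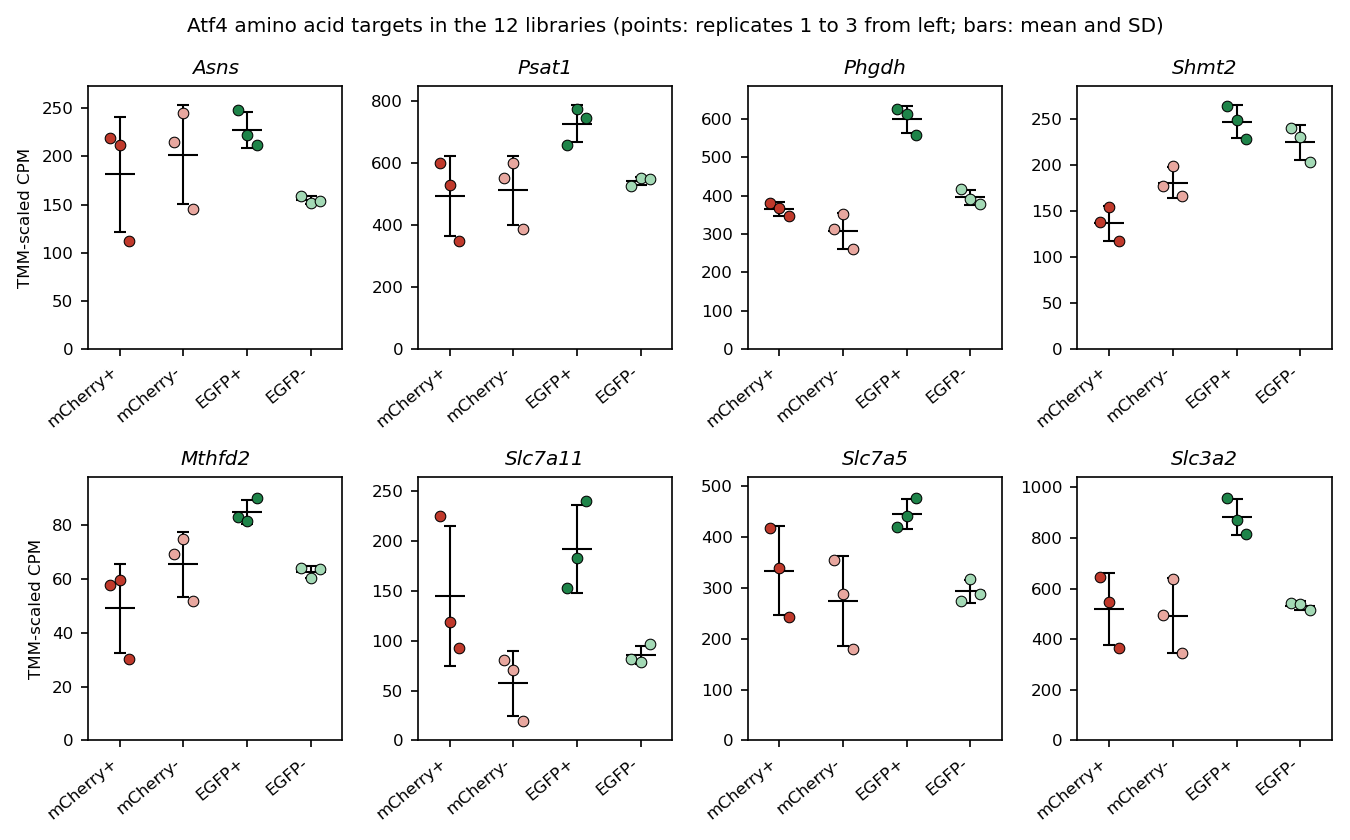
TMM-scaled CPM of the 8 Atf4 amino acid targets in each library, with the points of a group in replicate order and bars for the mean and standard deviation of 3 libraries. EGFP-positive points lie above all EGFP-negative points for every gene except Shmt2, and in both mCherry groups the point of library 3 is the lowest for all 8 genes.

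Among the regulators, 4 genes known to be induced through Atf4 were called higher, and Atf4 itself was not called. Atf4 (ENSMUSG00000042406, chr15:80255184-80257541) is the factor whose translation the pathway controls. In EGFP-positive cells the 3 libraries held 281, 272 and 221 CPM, and in EGFP-negative cells 265, 230.4 and 229.5 CPM. The groups overlapped, with a log2 fold change of 0.07 ± 0.12 (SE), adjusted p = 0.732. Ddit3 encodes CHOP, the factor tied to cell death under prolonged ER stress. Ddit3 stood at 67.2, 54.05 and 47.99 CPM in EGFP-positive libraries 1 to 3 and at 45.8, 42.5 and 41.1 CPM in EGFP-negative libraries 1 to 3. Its positive libraries lay above the negative ones, but the test did not call it (log2 0.37 ± 0.15 (SE), adjusted p = 0.135), and 3.97% of its exon bases overlap Mars on the opposite strand.

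Sesn2 encodes a leucine sensor that restrains mTORC1. Its levels were 157, 169 and 177 CPM in the 3 EGFP-positive libraries and 104, 106 and 97.9 CPM in the 3 EGFP-negative libraries. It rose 1.61-fold without overlap (log2 0.69 ± 0.11 (SE), adjusted p = 0.00316). Chac1 encodes an enzyme that degrades glutathione. The EGFP-positive libraries gave 58.7, 51.3 and 50.2 CPM, and the EGFP-negative libraries gave 31.04, 28.7 and 29.6 CPM. This was a 1.77-fold rise (log2 0.82 ± 0.13 (SE), adjusted p = 0.00356). Atf3 encodes a stress-induced transcription factor of the same family as Atf4. In EGFP-positive cells the 3 libraries held 54.5, 47.9 and 42.7 CPM, and in EGFP-negative cells 28.7, 26.3 and 24.1 CPM. It rose 1.81-fold (log2 0.85 ± 0.15 (SE), adjusted p = 0.00508). Ppp1r15a encodes GADD34, which brings a phosphatase to eIF2alpha and so ends the response. Ppp1r15a stood at 123, 106 and 110.2 CPM in EGFP-positive libraries 1 to 3 and at 83.5, 87.8 and 82.9 CPM in EGFP-negative libraries 1 to 3. It rose 1.31-fold (log2 0.39 ± 0.11 (SE), adjusted p = 0.0402).

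The other 4 regulators were not called in the EGFP sort. Trib3, a pseudokinase that restrains Atf4, ranged from 43.2 to 55.2 CPM in positive and from 28.3 to 37.9 CPM in negative libraries and lay just outside the threshold (log2 0.54 ± 0.16 (SE), adjusted p = 0.0517). Atf5, Nupr1 and Cebpb had overlapping groups. Cebpb, a transcription factor with several roles in inflammation and differentiation, stood at 8.68 CPM in EGFP-positive library 1 and between 1.16 and 1.86 CPM in the other 5 EGFP libraries. In mCherry libraries it ranged from 19.7 to 29.0 CPM, above every EGFP library. A span of 20.7% of its exon bases overlaps Tmem189 on the opposite strand, and the strand setting of the counting is not given in the sources used here.

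Of the 13 ER chaperones and folding enzymes, 1 was called higher, 1 lower and 11 were not called. Hspa5 encodes BiP, the Hsp70 chaperone of the ER and the usual readout of ER stress (ENSMUSG00000026864, chr2:34771970-34777547). Its levels were 699, 924 and 1005 CPM in the 3 EGFP-positive libraries and 770.0, 838 and 797 CPM in the 3 EGFP-negative libraries. The groups overlapped, with a log2 fold change of 0.11 ± 0.13 (SE), adjusted p = 0.626. Hsp90b1, or GRP94, is the ER form of Hsp90, and 10.3% of its exon bases overlap the pseudogene 1810014B01Rik on the opposite strand. Its groups overlapped (log2 0.07 ± 0.13 (SE), adjusted p = 0.778). So did those of Calr, or calreticulin, a lectin chaperone (log2 -0.15 ± 0.10 (SE), adjusted p = 0.352). Canx (calnexin, the membrane-bound lectin chaperone) ranged from 573 to 1004 CPM in positive and from 558 to 660 CPM in negative libraries.

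A pair of ER folding genes was called in opposite directions. Pdia4 encodes a disulfide isomerase. The EGFP-positive libraries gave 494, 612 and 585 CPM, and the EGFP-negative libraries gave 378, 399 and 385 CPM. It rose 1.44-fold without overlap (log2 0.52 ± 0.10 (SE), adjusted p = 0.0101). Sdf2l1 encodes a partner of ER J-domain proteins in the BiP cycle (ENSMUSG00000022769, chr16:17130138-17132383). In EGFP-positive cells the 3 libraries held 38.4, 28.7 and 23.6 CPM, and in EGFP-negative cells 67.9, 58.02 and 60.8 CPM. All positive libraries lay below all negative libraries, a 2.09-fold lower level (log2 -1.07 ± 0.18 (SE), adjusted p = 0.00503). The remaining 11 chaperones had log2 fold changes from -0.51 (Hyou1) to 0.38 (Canx), and 2 of them had groups that did not overlap (Dnajc3 higher, Hyou1 lower).

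The ER stress factors and degradation genes gave no call in the EGFP sort by edgeR, and 1 of these 5 genes had an unadjusted p under 0.05. Xbp1 encodes the factor whose spliced message drives ER expansion. Xbp1 stood at 114, 103 and 96.6 CPM in EGFP-positive libraries 1 to 3 and at 129, 125 and 142 CPM in EGFP-negative libraries 1 to 3. Its positive libraries all lay below the negative ones, with a log2 fold change of -0.35 ± 0.11 (SE), adjusted p = 0.0661, outside the threshold. DESeq2 called Xbp1 lower and called none of the other 4. Herpud1, an ER membrane protein of the degradation complex that carries both kinds of motif above, is regulated in both arms. Its levels were 124, 119 and 111 CPM in the 3 EGFP-positive libraries and 107, 105 and 109.9 CPM in the 3 EGFP-negative libraries. The lowest positive library was only just above the highest negative library (log2 0.12 ± 0.10 (SE), adjusted p = 0.493). Atf6, Edem1 (which marks glycoproteins for disposal) and Sel1l (the adaptor of the Hrd1 ubiquitin ligase) had overlapping groups.

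Counted by position alone, 16 of the 36 genes had every EGFP-positive library above every EGFP-negative library, against 18.7% of all genes tested. For 3 of the 36 (Sdf2l1, Hyou1 and Xbp1) every positive library lay below, against 16.9% of all genes tested.

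EGFP-positive library 1 stood apart within its group. It held the lowest level of 9 of the 13 chaperones and the highest level of 9 of the 10 regulators among the 3 EGFP-positive libraries. The libraries numbered 1 were lowest in both EGFP groups for 6 of the 13 chaperones, against 22.6% of all genes tested. They were highest in both for 6 of the 10 regulators, against 22.9%. Without EGFP-positive library 1, all 7 amino acid targets and the 4 regulators remained called, Trib3 was added, and 5 chaperones instead of 1 were called higher. Those 5 were Pdia4, Canx (log2 0.59), Dnajc3 (0.45), Dnajb9 (0.41) and Hspa5 (0.26). Manf joined Sdf2l1 among the lower genes (log2 -0.45), Xbp1 was called lower (-0.41) and Atf6 higher (0.45). Calls over all genes also rose in that fit, from 1468 to 2884 higher and from 1154 to 2360 lower. The count of chaperones called higher thus turned on this library, and the count of amino acid targets was 7 with and without it. The library had 17029023 reads in genes, against 26905418 and 30921109 in the other EGFP-positive libraries, and the part of depth in the difference was not tested.

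Other single libraries moved calls near the threshold. The amino acid count ranged from 4 to 7 of 8 over the 6 fits that each left out 1 EGFP library, and was 4 without EGFP-negative library 2. Over all genes, 644 were called higher without that library, against 1468 with all 6. All members called higher were 7 without that library and 18 without EGFP-positive library 1, against 12 with all 6. Leaving out EGFP-negative library 2 ended the call of Asns (adjusted p = 0.0581, over the alternatives from 0.000153 to 0.204). Leaving out any of the 3 EGFP-negative libraries or EGFP-positive library 2 ended the calls of Psat1 (adjusted p from 0.0768 to 0.0993), Mthfd2 (0.104 to 0.154), Ppp1r15a (0.102 to 0.142) and Pdia4 (0.0511 to 0.0618), and leaving out EGFP-positive library 3 also ended that of Mthfd2 (0.067). Phgdh, Sesn2 and Sdf2l1 were called in every one of the 13 alternative fits. A single fit of all 12 libraries, in which both sorts share 1 spread per gene, called 2 of the 36 genes higher (Phgdh and Sesn2) and Sdf2l1 lower in the EGFP sort, while the log2 fold changes of the 13 called genes kept their sign in every alternative.

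**Figure D3:**
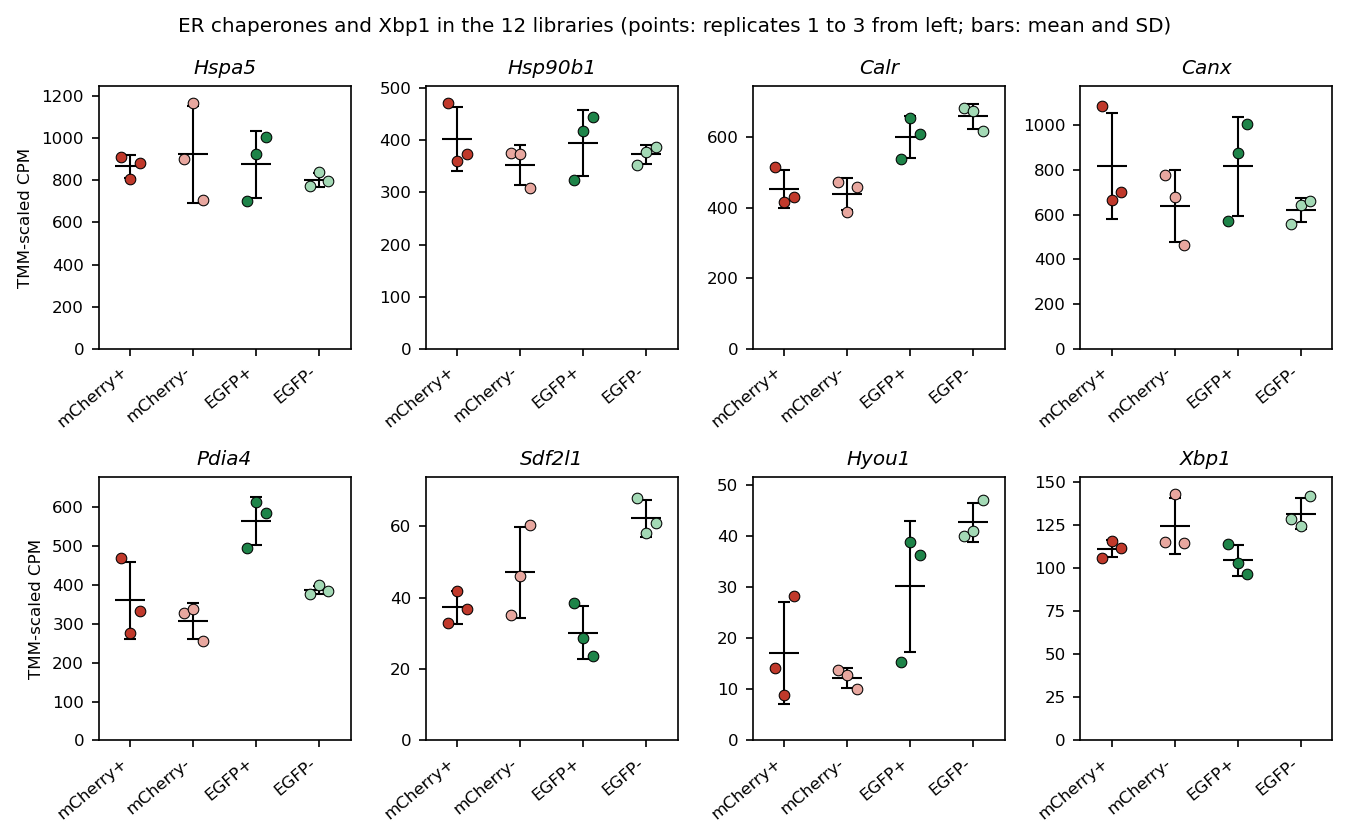
TMM-scaled CPM of 7 ER chaperones and folding enzymes and of Xbp1 in each library, with points in replicate order and bars for the mean and standard deviation of 3 libraries. EGFP-positive library 1 is the lowest of its group for Hspa5, Hsp90b1, Calr, Canx, Pdia4 and Hyou1, and Sdf2l1 is lower in all EGFP-positive than in all EGFP-negative libraries.

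In the mCherry sort no member of any arm was called. Of the 36 genes, edgeR called 0 higher and 0 lower, and 4 had an unadjusted p under 0.05. Over all 17369 genes tested in this sort, 0.541% were called higher and 0.656% lower, and 3233 had an unadjusted p under 0.05. DESeq2 called 1 of the 36 (Atf3), limma-voom called 0, and a fit without the filter on low counts called 2 (Atf3 and Slc7a11). A single fit of all 12 libraries called 1 (Atf3). The median standard error of the log2 fold change over the 36 genes was 0.23 in the mCherry sort and 0.13 in the EGFP sort, so a change that was called in the EGFP sort could miss the threshold here.

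Cell type markers gave 2 higher and 5 lower calls in this sort. The 5 were among 8 dividing cell markers, which summed to 230 to 337 CPM in mCherry-positive and 638 to 826 CPM in mCherry-negative libraries, and the 2 were Gfap of 7 astrocyte markers and Cfap65 of 5 ependymal markers.

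The 4 genes with an unadjusted p under 0.05 were Atf3, Slc7a11, Shmt2 and Pdia6, which were also the 4 whose groups did not overlap. Atf3 stood at 67.8, 30.8 and 35.1 CPM in the mCherry-positive libraries and 23.1, 22.8 and 14.5 CPM in the mCherry-negative libraries (log2 1.15 ± 0.33 (SE), adjusted p = 0.118). Its mCherry-positive library 1 was well above the others. Slc7a11 stood at 225, 119 and 92.2 CPM in the mCherry-positive libraries and 80.7, 70.9 and 19.9 CPM in the mCherry-negative libraries (log2 1.35 ± 0.48 (SE), adjusted p = 0.181). Both groups of Slc7a11 were widely spread, and the lowest positive library was only slightly above the highest negative library. Shmt2 ranged from 117 to 155 CPM in positive and from 166 to 199 CPM in negative libraries (log2 -0.40 ± 0.18 (SE), adjusted p = 0.263). Pdia6, a disulfide isomerase, ranged from 348 to 402 CPM and from 455 to 541 CPM (log2 -0.38 ± 0.17 (SE), adjusted p = 0.264). Every positive library lay above every negative library for 2 of the 36 genes and below for 2, against 11.8% and 14% of all genes tested.

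Apart from Slc7a11 and Atf3, every gene called in the EGFP sort had overlapping groups in the mCherry sort. Asns stood at 219.6, 212 and 112 CPM in the mCherry-positive libraries and 215, 245 and 145 CPM in the mCherry-negative libraries. Its spread within each group exceeded the difference between them (log2 -0.15 ± 0.28 (SE), adjusted p = 0.815). Slc3a2 stood at 647, 549 and 367 CPM in the mCherry-positive libraries and 496, 639 and 345 CPM in the mCherry-negative libraries. Phgdh was tighter, at 381, 368 and 346 CPM in the mCherry-positive libraries and 312, 353 and 260.4 CPM in the mCherry-negative libraries (log2 0.25 ± 0.17 (SE), adjusted p = 0.471).

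The regulators, apart from Atf3, also overlapped between the mCherry groups. Atf4 stood at 196, 225 and 164 CPM in the mCherry-positive libraries and 192, 182 and 224 CPM in the mCherry-negative libraries (log2 -0.02 ± 0.18 (SE), adjusted p = 0.957). Ddit3 stood at 44.03, 45.6 and 41.7 CPM in the mCherry-positive libraries and 33.2, 41.96 and 42.2 CPM in the mCherry-negative libraries (log2 0.17 ± 0.19 (SE), adjusted p = 0.665). The groups overlapped for both genes. Sesn2 stood at 153, 156 and 129 CPM in the mCherry-positive libraries and 152, 132 and 81.9 CPM in the mCherry-negative libraries. Chac1 stood at 36.4, 36.03 and 17.9 CPM in the mCherry-positive libraries and 33.6, 38.7 and 19.2 CPM in the mCherry-negative libraries. Library 3 was the lowest of its group for both in each mCherry group.

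The ER genes, apart from Pdia6, overlapped between the mCherry groups too. Hspa5 stood at 909, 805 and 880.1 CPM in the mCherry-positive libraries and 898, 1163 and 705 CPM in the mCherry-negative libraries (log2 -0.08 ± 0.21 (SE), adjusted p = 0.859). Its lowest and its highest level were both in mCherry-negative libraries. Xbp1 stood at 106, 116 and 112 CPM in the mCherry-positive libraries and 115, 143 and 115 CPM in the mCherry-negative libraries. Herpud1 stood at 101, 104 and 103 CPM in the mCherry-positive libraries and 93.4, 123 and 78.5 CPM in the mCherry-negative libraries. Sdf2l1, which fell in the EGFP sort, ranged from 32.8 to 42.0 CPM in mCherry-positive and from 35.1 to 60.3 CPM in mCherry-negative libraries (log2 -0.33 ± 0.23 (SE), adjusted p = 0.483).

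The spread within the mCherry groups had a common pattern across the amino acid targets. All 8 were lowest in library 3 of the mCherry-positive group and also lowest in library 3 of the mCherry-negative group. Over all 17369 genes tested in that sort, 14.7% were lowest in library 3 of both groups, and 1 of the 13 ER chaperones was. Summed over the 8 targets, the mCherry-positive libraries held 2688, 2330 and 1657 CPM and the mCherry-negative libraries 2256, 2468 and 1556 CPM. The sum in the libraries numbered 3 was thus below both others in each group, a gap larger than that between the group means of 2225 ± 523 (SD, n = 3) and 2093 ± 477 CPM (SD, n = 3). Astrocyte markers were likewise lowest in mCherry-negative library 3 (3687 CPM, 6839 and 6993 CPM in the other 2) but not in mCherry-positive library 3 (8264 CPM, with 11909 and 7642 CPM in the other 2). Whether the same-numbered libraries came from a shared culture or day is not given in the labels.

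**Figure D4:**
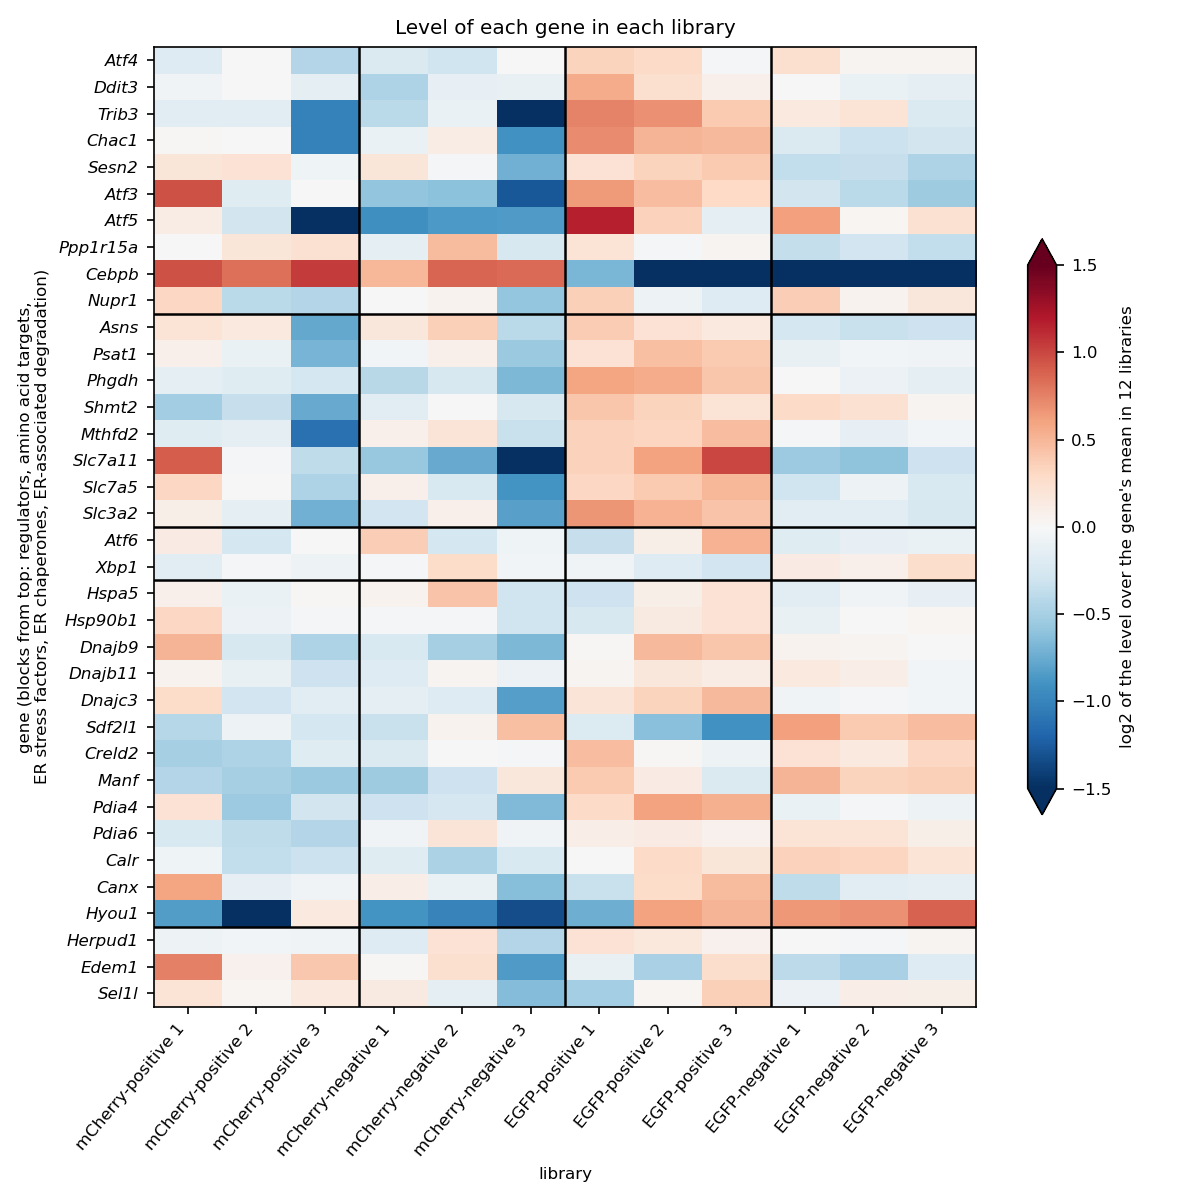
Level of each of the 36 genes in each of the 12 libraries as the log2 of its CPM over the gene's mean in the 12 libraries, with the colour scale cut at -1.5 and 1.5 and lines between groups and gene lists. The block of amino acid targets is above its mean throughout the EGFP-positive libraries and below it in both mCherry libraries numbered 3, and Cebpb is high in all mCherry libraries.

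The difference between the 2 effects was tested for each gene in 1 fit of all 12 libraries. None of the 36 genes was called, with 5 at an unadjusted p under 0.05 (Chac1, Asns, Shmt2, Mthfd2 and Sdf2l1) and a smallest adjusted p of 0.205 by edgeR (Shmt2). DESeq2 and limma-voom also called 0. Over all 18063 genes tested for this difference, 0.886% were called with a higher mCherry effect and 0.559% with a lower one. An unadjusted p under 0.05 was found for 2736 of them. The log2 effect in the mCherry sort minus that in the EGFP sort was -0.71 ± 0.33 (SE), adjusted p = 0.326, for Asns, and -0.85 ± 0.31 (SE), adjusted p = 0.211, for Mthfd2. It was 0.18 ± 0.58 (SE), adjusted p = 0.921, for Slc7a11, the gene with the largest log2 fold change in both sorts. The calls in the EGFP sort and their absence in the mCherry sort thus do not show that the sorts differed. The median standard error of the difference over the 36 genes was 0.29.

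Between the sorts as a whole, levels of few members separated. Only Cebpb was higher in all mCherry than in all EGFP libraries (1 of 36, 3.8% of all genes tested), and only Shmt2 and Calr were higher in all EGFP than in all mCherry libraries (2 of 36, 1.84% of all genes tested). Shmt2 ranged from 203 to 263 CPM in EGFP and from 117 to 199 CPM in mCherry libraries. Calr ranged from 538 to 683 CPM and from 386 to 514 CPM. Virus, RNA input and sort differ together here, and no test was made between them.

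Per kilobase of exon, the 5 most abundant of the 36 messages in both EGFP groups were Calr, Hspa5, Pdia4, Phgdh and Slc3a2, and neighbours in their order were not tested against each other. In EGFP-negative cells, the mean level per kilobase was 229 CPM for Calr, 189.5 for Hspa5, 161 for Pdia4, 159 for Phgdh and 151 for Slc3a2. In EGFP-positive cells Slc3a2 (250.1), Phgdh (241) and Pdia4 (235) were above Calr (208) and Hspa5 (207). The stress markers Ddit3, Trib3 and Chac1 were far lower, at 32.9, 23.7 and 32.6 CPM per kilobase in EGFP-positive cells.

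Further lists covered 147 entries in all, from both pathways and from cytosolic heat shock, mitochondrial stress and oxidative stress. They held 25 rises and 4 falls among 146 tested in the EGFP sort. Over all 16326 genes tested in that sort, 8.99% were called higher and 7.07% lower. Of 20 more amino acid and one-carbon genes tied to Atf4, 19 were tested and 6 rose, with a median log2 fold change of 0.40. Slc7a3, a transporter of cationic amino acids, rose by a log2 of 1.27 (adjusted p = 0.00052), and Gdf15, a secreted stress hormone, by 1.24 (adjusted p = 0.00304). Of 20 cytosolic aminoacyl-tRNA synthetases, which charge tRNAs with amino acids, 4 rose (Cars, Dars, Mars and Eprs) and 1 fell (Farsa), with a median of 0.17. Of 13 genes for eIF2alpha kinases and the exchange factor eIF2B, 1 rose, Eif2ak2, which encodes the kinase activated by double-stranded RNA (log2 0.82, adjusted p = 0.0132).

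The further ER lists gave single calls, beside 8.99% of all genes tested called higher and 7.07% called lower. Of 9 ER stress sensors and their processing proteases, Creb3l1 rose (log2 0.58) and Creb3l2 fell (log2 -0.77), both being ER-anchored transcription factors. Of 20 more ER folding enzymes, Sil1, the exchange factor of BiP, rose (log2 0.66) and Pdia5 fell (log2 -0.66). Of 21 translocon and N-glycosylation genes 1 fell (Ostc, log2 -0.41), and of 16 more degradation genes 1 rose (Derl1, log2 0.37). The medians of these lists lay between -0.17 and 0.12.

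Oxidative stress genes moved with the amino acid genes in the EGFP sort. Of 9 targets of Nrf2 or genes of its pathway, 8 rose, with a median log2 fold change of 0.85, and Slc7a11 is both one of these 9 and one of the amino acid targets. Srxn1, which repairs oxidised peroxiredoxins, rose by a log2 of 0.94 (adjusted p = 0.000624), and Nfe2l2, which encodes Nrf2, by 1.03 (adjusted p = 0.000635). Of 12 cytosolic heat shock genes 2 rose, Bag3 (log2 1.09) and Hspb1 (log2 1.37), and of 7 mitochondrial stress genes 1 rose (Hspa9, log2 0.52). In the mCherry sort and for the difference between the sorts, edgeR called 0 of the 146 entries tested. An unadjusted p under 0.05 was found for 22 and 20 of them, against 3233 of 17369 and 2736 of 18063 genes tested. DESeq2 called 5 and 3 of the 146 entries, and limma-voom 1 and 0. Over all genes, DESeq2 called 1476 and 894, and limma-voom 246 and 195. In the mCherry sort the 9 Nrf2 genes had a median log2 fold change of 0.59, with 7 positive and 2 negative. By edgeR, 5 of them had an unadjusted p under 0.05, and the smallest adjusted p was 0.0535. The amino acid targets had a median of 0.02 in that sort, with 4 positive and 4 negative.

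**Figure D5:**
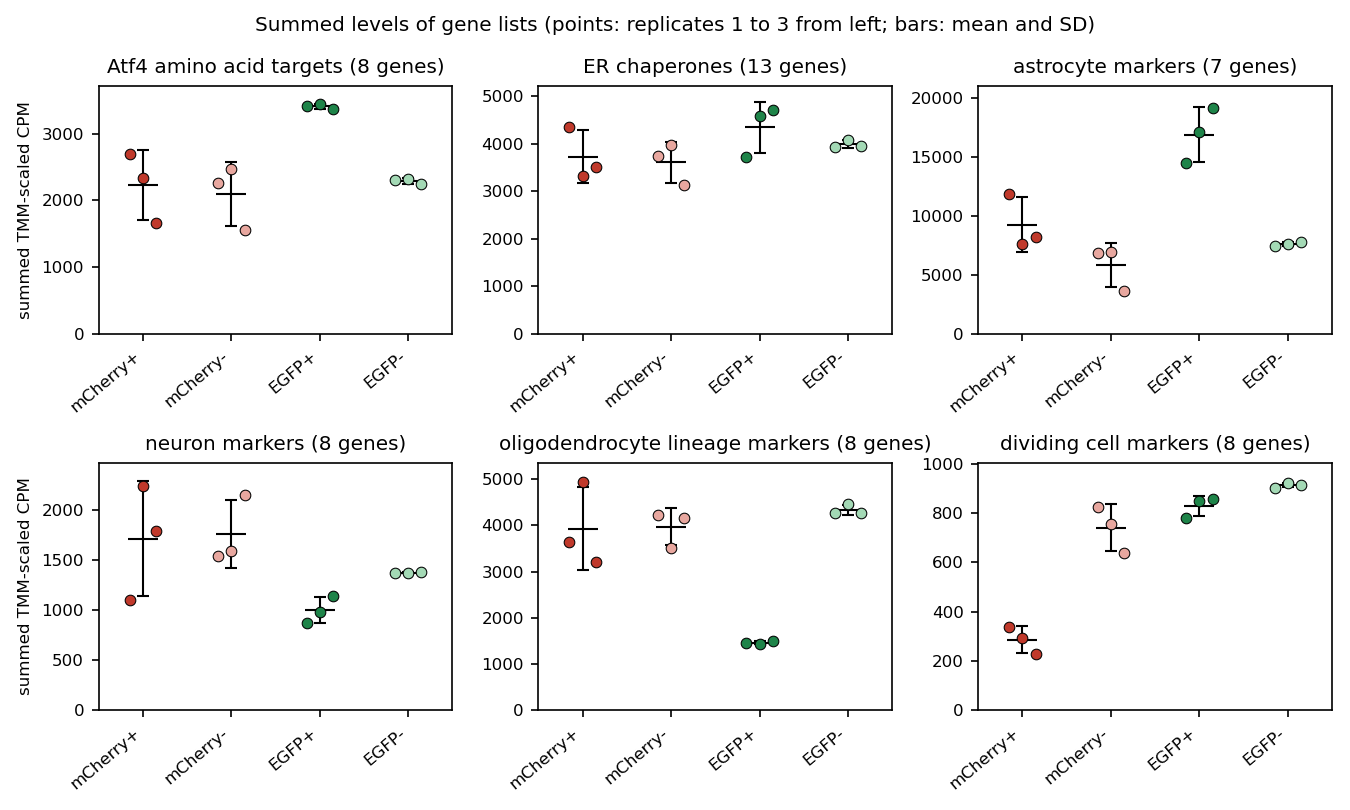
Summed TMM-scaled CPM of 2 member lists and 4 lists of cell type markers in each library, with points in replicate order and bars for the mean and standard deviation of 3 libraries. Amino acid targets and astrocyte markers are both higher in all EGFP-positive than in all EGFP-negative libraries, and neuron and oligodendrocyte lineage markers are lower.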

How the data were processed

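The authors deposited raw counts for each Ensembl gene, 1 file per library, without normalization. Per the submitters' processing notes, the tools were cutadapt 1.8, STAR 2.5.2b and HTSeq 0.6.1 and the build was GRCm38; settings and strandedness of the counting are not given in the sources used here. Entries that name no gene held 31.4% to 38.2% of counted reads and were left out. Symbols came from GENCODE M21, which lacked 360 of 48709 identifiers.

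Each sort was fitted on its own 6 libraries with edgeR 4.0.16 (R 4.3.3): TMM factors, filterByExpr (minimum count 10, minimum total 15), group as the only term, the quasi-likelihood test and Benjamini-Hochberg adjustment over all genes tested. The difference of the 2 effects was fitted on all 12 libraries. The SE is the absolute log2 fold change over the square root of the F statistic. Alternatives were DESeq2 1.42.0 size factors or tests, limma-voom (3.58.1), no filter or at least 5 CPM in 3 libraries, a replicate block, 1 fit of all 12 libraries, and leaving out each library. The fits were tested on simulated counts with 200 changed genes. Of genes given a log2 change of 1, the mCherry fit called 14.4%, the EGFP fit 64.2% and the fit of the difference 11.2%. For a log2 change of 2 the shares were 58.9%, 86.2% and 55.7%.

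The members, the further lists and the markers were chosen with earlier results of these data known. Values in every library are given for up to 6 called members per list and comparison and always for Atf4, Ddit3, Atf3, Asns, Slc7a11, Xbp1, Hspa5 and Herpud1, with others by range, and up to 2 called genes per further list and direction; other genes were named after their values were seen. Exon overlaps came from GENCODE, and promoter windows from RefSeq. Reads carried no molecular identifiers, so PCR copies of 1 molecule count as separate reads.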

Additional observations from a re-analysis of the deposited data

How the results depend on the processing

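Counts over all genes moved more than the values of single genes. In the mCherry sort, 208 genes were called, against 1476 with DESeq2, 1712 in 1 fit of all 12 libraries, 778 without the filter on low counts, 458 with the stricter filter, 343 with a replicate block, and 0 to 212 when 1 library was left out. Among the 36 members, 1 was called higher there with DESeq2 and 1 with all 12 libraries (Atf3), 2 without the filter (1 of them an amino acid target) and 1 with the replicate block (Slc7a11, which is 1 amino acid target). In the EGFP sort, 2622 genes were called, 801 in the fit of all 12 libraries and 1137 to 5244 with 1 library left out. Amino acid targets called higher were 7, falling to 1 in the fit of all 12 libraries and 4 to 7 with 1 left out. Chaperones called higher were 1, with 2 under DESeq2, 2 with the replicate block, 0 in the fit of all 12 libraries and 0 to 5 with 1 left out, and those called lower were 1 to 2 with 1 left out. All members called higher were 12, with 2 in the fit of all 12 libraries and 7 to 18 with 1 left out, and those called lower were 1, with 2 under DESeq2, 2 with the replicate block and 1 to 3 with 1 left out. The difference between the sorts had 261 calls, 894 with DESeq2, 675 without the filter and 27 to 591 with 1 library left out, and no member among them in any alternative. Single members in the EGFP sort lost a call in 29 cases and gained one in 16, in the mCherry sort they gained one in 5, and no called value changed sign. Leaving out a library tests on fewer samples. The fit of all 12 libraries gives both sorts 1 spread, with a coefficient of variation of 0.313. The cause of the other shifts was not tested. Same-numbered libraries of a sort correlated in their deviations from the group means at 0.126, -0.021 and 0.033 (mCherry) and at 0.169, 0.001 and 0.066 (EGFP), and not every library correlated best with its own number, so the numbers were not taken as pairs.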
